A study of Mus musculus with 24 samples.

Results

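Mitochondrial ribosomal protein genes are nuclear genes whose products are imported into mitochondria and assembled there into the mitochondrial ribosome. The members were taken as the protein-coding genes of the count table with a symbol made of Mrpl or Mrps, a number and at most 1 further letter, which gave 78 of the 21965 genes listed. All 78 were among the 17167 genes tested, so none was lost to the filter on low counts. Of these, 49 carry an Mrpl symbol (large subunit by name) and 29 an Mrps symbol (small subunit by name).

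The mitochondrial ribosome, or mitoribosome, translates the few mRNAs encoded by mitochondrial DNA, all of which specify subunits of the respiratory chain and the ATP synthase. Its proteins are made in the cytosol from nuclear mRNAs, so the ribosomes that translate them can be purified with the rest of the cytosolic ribosomes of a cell. Some of these proteins descend from bacterial ribosomal proteins and others are specific to mitochondria, and oligodendrocytes (OLs), the myelinating cells of the central nervous system, carry them like other cells.

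The study sequenced mRNA of the mouse spinal cord after moderate contusive spinal cord injury (SCI) at thoracic level T9 (50 kdyn, IH impactor). All mice, naive controls included, were female OL-Ribotag animals, in which tamoxifen-activated CreERT2 expressed in OLs switches on an HA-tagged Rpl22 ribosomal protein, and all were given tamoxifen at 6 weeks of age. Groups were naive mice without injury and mice at 3 times after injury (days post-injury, dpi: 2, 10 or 42), with 3 pools of 2 mice per group. From each pool of 5 mm segments around the lesion, total RNA (the input, from all cells of the segment) and OL mRNA (bound to HA-tagged ribosomes and pulled down with an anti-HA antibody) were sequenced, giving 24 libraries in 8 groups of 3. The labels put the age at injury at 10 to 12 weeks and the methods at 8 to 10 weeks. Naive tissue was collected together with dpi 42 tissue, so at dpi 2 and dpi 10 injury cannot be told apart from age and from the time since tamoxifen. Controls were uninjured, and no sham-operated group was described. Injured mice also had surgical anesthesia, laminectomy and, after surgery, saline, gentamycin and buprenorphine. At all 3 times injury cannot be told apart from these treatments. The CreERT2 driver can also act in Schwann cells. In such bulk samples fewer cells of a type and less mRNA per cell cannot be told apart.

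Libraries held 25840127 to 32987841 counts. The summed level of 7 oligodendrocyte markers was 70600 to 95400 counts per 1000000 (CPM, scaled by TMM, the trimmed mean of M-values) in OL libraries and 14800 to 18600 CPM in total RNA. For 2 dpi 42 libraries the title and the description disagreed on which was OL and which was total RNA. They were grouped by the description, which the table's columns follow, and their marker levels lay in the ranges just given for those groups. Both libraries of dpi 2 replicate 2, from mice described as female, held 2414 and 2604 counts on 4 Y-linked genes, against 0 to 13 in the other 22. Without that pool 57 members rose and 1 fell in OL mRNA at dpi 2, and 23 were higher in differential OL enrichment. Microglia and macrophage markers (8 genes) summed to 13.9 to 20.8 CPM in naive OL mRNA, 65.8 to 93.0 at dpi 2, 145 to 194 at dpi 10 and 114 to 194 at dpi 42. Schwann cell markers (7 genes) summed to 691 to 1260, 971 to 1560, 1870 to 2760 and 2000 to 2330 CPM at the same times, with Gdnf at 0 in the naive and dpi 42 groups. Markers of oligodendrocyte precursors (5 genes) summed to 2000 to 2200, 2710 to 3270, 1790 to 1980 and 1760 to 2320 CPM. The sum was highest at dpi 2, where 2 of the 5 genes rose and 1 fell from naive. In naive tissue 1 of the 5 was higher in OL mRNA than in total RNA and 4 were lower, so the sum does not stand for all 5. Endothelial markers (5 genes) summed to 4.33 to 5.09, 10.8 to 17.8, 7.81 to 16.2 and 8.21 to 17.3 CPM. Astrocyte markers (7 genes) varied widely within each group, between 2230 and 12200 CPM in naive, 2530 and 9670 at dpi 2, 2850 and 7620 at dpi 10 and 2850 and 14700 at dpi 42. Neuron markers (8 genes) summed to 549 to 722, 391 to 705, 388 to 483 and 338 to 508 CPM. The part of these cells in the changes of OL mRNA described here was not tested.

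The members were mostly short genes. Single members had 5 to 2952 counts in a library. The length of their main coding transcript had a median of 1300 bases (418 to 7300), against 2870 bases over all genes tested, and the GC content of that transcript had a median of 50.4%, against 50.5%. Compared per length in naive OL mRNA, Mrpl20 stood highest at 61.5 ± 5.5 CPM per kilobase (SD, n = 3), followed by Mrps21 at 48.3 ± 4.02 and Mrpl24 at 46.6 ± 2.69. Mrpl53 stood lowest at 0.497 ± 0.311 CPM per kilobase, below Mrps35 (3.3 ± 0.662) and Mrps14 (3.57 ± 1.04), whose SDs overlap. Exons of Mrpl53 share 88.0% of their bases with another gene on the same strand, so its counts are uncertain. In all, 23 members share exonic bases with another listed gene and 12 share over 10% of theirs.

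Promoter windows are shown for the 3 members of smallest p among those that rose in OL mRNA at dpi 2 and for the 2 that fell. They run from 250 bases before to 50 bases after the transcription start (RefSeq, build GRCm38.p6) and are written on the gene's own strand, here plus for all 5. Gene spans are from GENCODE and begin before the RefSeq start for all but Mrpl52. Positions in a window are counted from the RefSeq start. Mrpl52, a protein of the large subunit that is specific to mitochondria, lies at chr14:54426909-54429756 (window chr14:54426659-54426958). Mrpl51, also specific to mitochondria and of the large subunit, lies at chr6:125191801-125196269 (window chr6:125191950-125192249). Mrpl12, the stalk protein that recruits translation factors and also binds the mitochondrial RNA polymerase, lies at chr11:120484613-120489065 (window chr11:120484387-120484686). Mrpl3, a bacterial-type protein near the catalytic centre of the large subunit, lies at chr9:105053239-105079888 (window chr9:105053018-105053317). Mrps5, a bacterial-type protein of the small subunit, lies at chr2:127587222-127606829 (window chr2:127587176-127587475). Capitals mark letters of 3 motifs searched on both strands: GCGCA and GCGC with any 1 base between them, bound by NRF1, CCGGAAGT, bound by ETS factors such as GABP, and AAGATGGCG, bound by YY1, all factors known to act on genes for mitochondrial proteins.
Mrpl52: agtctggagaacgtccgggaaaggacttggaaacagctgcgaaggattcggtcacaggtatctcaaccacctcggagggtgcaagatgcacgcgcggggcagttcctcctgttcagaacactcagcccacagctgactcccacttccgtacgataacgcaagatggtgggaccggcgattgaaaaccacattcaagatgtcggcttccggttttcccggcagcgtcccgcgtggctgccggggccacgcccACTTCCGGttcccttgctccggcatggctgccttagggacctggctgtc
Mrpl51: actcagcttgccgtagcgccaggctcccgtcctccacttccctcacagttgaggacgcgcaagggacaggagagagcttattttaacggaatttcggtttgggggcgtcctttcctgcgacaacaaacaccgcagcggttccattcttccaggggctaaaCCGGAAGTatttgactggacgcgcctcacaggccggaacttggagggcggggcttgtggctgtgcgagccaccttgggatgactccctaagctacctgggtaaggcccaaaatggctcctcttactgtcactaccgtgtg
Mrpl12: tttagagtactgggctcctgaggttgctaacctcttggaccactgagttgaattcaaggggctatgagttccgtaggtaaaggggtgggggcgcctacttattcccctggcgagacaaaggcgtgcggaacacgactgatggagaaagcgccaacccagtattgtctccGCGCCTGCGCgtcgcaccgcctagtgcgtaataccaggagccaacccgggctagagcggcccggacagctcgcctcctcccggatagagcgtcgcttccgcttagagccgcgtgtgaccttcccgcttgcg
Mrpl3: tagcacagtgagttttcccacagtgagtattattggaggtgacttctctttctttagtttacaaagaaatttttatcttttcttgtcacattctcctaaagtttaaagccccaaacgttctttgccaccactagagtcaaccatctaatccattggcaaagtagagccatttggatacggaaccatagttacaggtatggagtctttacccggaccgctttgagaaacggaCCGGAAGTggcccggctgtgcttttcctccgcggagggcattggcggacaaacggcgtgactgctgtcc
Mrps5: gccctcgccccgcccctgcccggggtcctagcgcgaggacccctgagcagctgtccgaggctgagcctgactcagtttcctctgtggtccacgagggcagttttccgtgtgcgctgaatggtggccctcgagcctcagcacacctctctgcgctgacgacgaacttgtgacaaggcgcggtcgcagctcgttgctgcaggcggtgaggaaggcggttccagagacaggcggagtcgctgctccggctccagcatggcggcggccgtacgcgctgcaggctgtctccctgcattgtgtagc

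In these windows the NRF1 letters stood in Mrpl12, on the minus strand, 81 to 72 bases before the start. The ETS letters stood 90 to 83 bases before the start of Mrpl51, 19 to 12 before that of Mrpl3 and, on the minus strand, just after that of Mrpl52, and the Mrps5 window held none of the 3. A window was at hand for 69 members. The NRF1 motif was in 13 of them (18.8%), against 9.22% of 13177 tested genes and 5.19% of all 27025 genes with a window. The ETS motif was in 12 (17.4%, against 7.24% and 4.31%) and the YY1 motif in 8 (11.6%, against 2.79% and 1.64%), and 31 members held at least 1 of the 3 (44.9%, against 17.8% and 10.3%). Among members with an NRF1 motif 11 of 13 rose in OL mRNA at dpi 2 (median log2 difference 0.79), and 40 of the 56 without it did (median 0.64). Of the 38 members with none of the 3 motifs, 26 rose (median 0.61), so members rose both with and without these letters. A match here is a description of letters and not a bound site.

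The mean level over the 78 members moved with time in OL mRNA. In naive OL libraries it was 4.42 to 4.48 log2 CPM, at dpi 2 5.03 to 5.15, at dpi 10 4.58 to 4.62 and at dpi 42 4.74 to 5.06. Of the 4 ranges only those of dpi 2 and dpi 42 overlapped, and both lay above dpi 10, which lay above naive. The SD over the 3 libraries was largest at dpi 42 (0.168), where 1 of the libraries (replicate 3) lay well below the others. In total RNA the mean level was 4.71 to 4.75 in naive, 4.75 to 4.93 at dpi 2, 4.47 to 4.53 at dpi 10 and 4.53 to 4.78 at dpi 42, so that dpi 10 lay below naive, dpi 2 just above it, and dpi 42 overlapped all 3. Summed over the members, naive OL mRNA held 2010 ± 40.0 CPM (SD, n = 3) and dpi 2 OL mRNA 3130 ± 111 CPM. In OL mRNA 58 members had their highest mean at dpi 2 and 18 at dpi 42, and 60 had their lowest in naive.

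**Figure D1:**
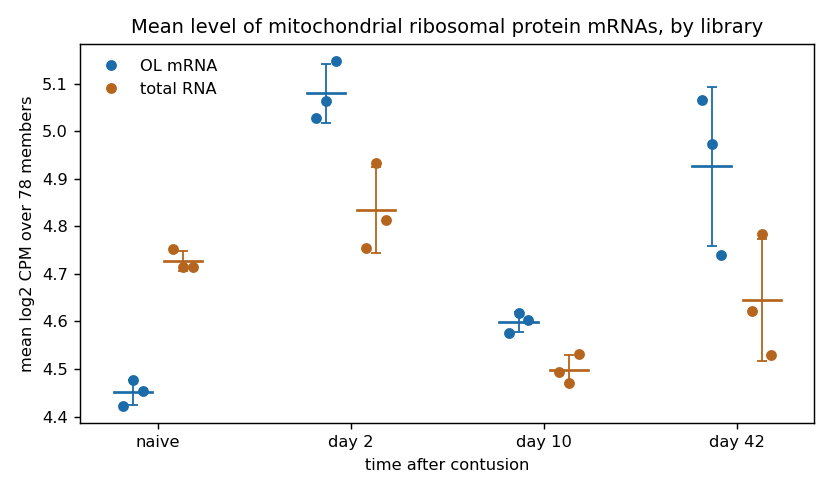
Mean log2 CPM over the 78 members in each library (y axis) by time (x axis), for OL mRNA and total RNA. Points are libraries and bars the mean with SD of 3 libraries. In OL mRNA naive libraries lie at 4.42 to 4.48 and dpi 2 libraries at 5.03 to 5.15, with dpi 10 between them and dpi 42 (4.74 to 5.06) overlapping dpi 2.

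OL enrichment, the log2 difference of OL mRNA from total RNA of the same time, asks how far a transcript belongs to OLs rather than to the whole tissue. In naive tissue 35 members were lower in OL mRNA and 4 were higher (edgeR quasi-likelihood test, Benjamini-Hochberg q < 0.05), against 30.5% of all genes tested lower and 24.9% higher. The median difference was -0.27 over the members and -0.27 over all genes. Without any 1 of the 3 naive OL libraries 20 or 21 members were lower and 7 to 9 higher, and without naive total RNA replicate 1 or 2 only 1 was higher. Scaled by library size alone, 67 were lower and 1 higher, since that scaling moved the median of all genes to between -0.80 and -0.69 in the 4 enrichment comparisons. When length and GC content were corrected for in each library, 26 members were higher and 9 lower in naive OL mRNA. Of all genes 33.8% and 23.7% were, and the median was then 0.13 over the members and 0.00 over all genes.

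Mrpl24, a bacterial-type protein of the large subunit that helps early assembly in bacteria, had the smallest p of the members enriched in naive OL mRNA. Its level was 58.5, 65.6 and 63.2 CPM in OL mRNA and 38.1, 33.2 and 32.1 CPM in total RNA. The groups did not overlap, and the difference was 0.86 ± 0.10 (log2, SE; adjusted p = 2.2e-07). Of its exonic bases, 26.3% overlap Rrnad1 on the other strand. Mrpl58, a peptidyl-tRNA hydrolase that frees stalled mitoribosomes, measured 47.3, 51.0 and 39.6 CPM in OL mRNA and 35.1, 33.7 and 39.9 CPM in total RNA. The lowest OL value lay just under the highest total RNA value, and the difference was 0.34 ± 0.12 (adjusted p = 0.0179).

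Mrpl42, a mitochondria-specific protein of the large subunit, was the clearest of the members low in naive OL mRNA. It measured 23, 24.4 and 26.7 CPM in OL mRNA and 65.5, 58.7 and 53.5 CPM in total RNA. Every OL library lay below every total RNA library, with a difference of -1.26 ± 0.14 (adjusted p = 1.3e-07). Mrps18a, which sits in the large subunit in spite of its name, measured 25.3, 25.8 and 25.4 CPM in OL mRNA and 41.4, 44.7 and 43.5 CPM in total RNA, again with no overlap (-0.76 ± 0.12, adjusted p = 7.6e-06). Mrps14 (-1.20), Mrpl30 (-0.63) and Mrpl12 (-0.58) followed among the lower members, and Mrpl9 (0.27) and Mrpl43 (0.24) were the others that were higher.

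Without a correction for length and GC content, the balance turned after injury. At dpi 2, 29 members were higher in OL mRNA than in total RNA and 3 were lower (all genes 24.8% and 28.8%, member median 0.26, all-gene median -0.19). At dpi 10, 19 were higher and 9 lower (25.2% and 28.8%, medians 0.10 and -0.22), and at dpi 42, 30 were higher and 2 lower (24.9% and 28.9%, medians 0.27 and -0.18). Scaled by library size alone these counts became 4 and 34, 1 and 47, and 8 and 28, so the direction of enrichment depends on the scaling, while the member median stayed above the all-gene median at these 3 times. Without dpi 2 OL replicate 3, 6 members were lower at dpi 2. Without dpi 2 OL replicate 2 or dpi 2 total RNA replicate 3, 1 was lower there. At dpi 42, 4 were lower without dpi 42 OL replicate 2 and 1 was lower without dpi 42 OL replicate 3 or dpi 42 total RNA replicate 2. With length and GC content corrected for, 46 were higher and 1 lower at dpi 2 (all genes 33.2% and 23.4%). At dpi 10, 38 and 3 were (32.3% and 23.9%), and at dpi 42, 39 and 3 (32.2% and 23.4%). More members were thus higher than lower at every time. In naive tissue (26 and 9) the share that was higher lay near that of all genes (33.8% higher, 23.7% lower).

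Mrpl24 had the smallest p of the enriched members at every time, though other members differed by more at dpi 2 (Mrpl23, 1.37) and dpi 42 (Mrps6, 1.27). Its levels were 85.6, 106.0 and 89.4 CPM in OL mRNA at dpi 2, 74.2, 75 and 73.9 at dpi 10, and 87.1, 87.5 and 91.2 at dpi 42. Total RNA held 43.9, 51.0 and 44.2, then 42.5, 41.9 and 42.0, then 37.7, 45.6 and 45.0 CPM. No OL library overlapped a total RNA library, and the differences were 1.01, 0.82 and 1.05 (log2).

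Mrpl43, of the large subunit, measured 79.9, 85.8 and 91.4 CPM in OL mRNA at dpi 2 and 45.7, 50.3 and 40.7 CPM in total RNA. The groups lay far apart (0.91 ± 0.10, adjusted p = 9.3e-08), and 33.4% of its exonic bases overlap Twnk on the other strand. Mrpl58 was next to Mrpl24 at dpi 10 (49.2, 50.6 and 43.6 CPM against 31.6, 24.8 and 30.1) and at dpi 42 (60.8, 57.7 and 56.0 against 33.1, 32.8 and 26.6). Neither pair of groups overlapped, and its differences were 0.73 ± 0.12 (adjusted p = 2.2e-05) and 0.92 ± 0.12 (adjusted p = 1.2e-06).

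Mrpl42 stayed among the lower members, with 39.0, 34.8 and 42.2 CPM in OL mRNA at dpi 2 against 51.9, 62.0 and 60.0 in total RNA (-0.58 ± 0.14, adjusted p = 0.00146). It differed by -0.60 at dpi 10, where OL mRNA held 28.1, 29.6 and 27.3 CPM and total RNA 35.5, 44.0 and 49.3. At dpi 42 it differed by -0.62, with 32.8, 42.9 and 31.4 against 57.5, 59.9 and 46.8 CPM. At all 3 times its OL libraries lay below its total RNA libraries, as in naive tissue.

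The other members given in full were lower in OL mRNA. Mrpl16, a bacterial-type protein of the large subunit, held 14.7, 12.6 and 18.4 against 19.7, 24.3 and 24.6 CPM at dpi 2 (-0.59 ± 0.21, adjusted p = 0.0257). Mrps14, of the small subunit, held 10.9, 11.3 and 10.2 against 17.2, 20.1 and 22.4 CPM at dpi 10 (-0.88 ± 0.19, adjusted p = 0.00044). Mrps2, of the small subunit, held 27.6, 28.8 and 20.9 against 32.7, 38.4 and 33.9 CPM at dpi 42 (-0.44 ± 0.14, adjusted p = 0.0134), and was lower at dpi 10 too (-0.34, adjusted p = 0.0495). In each the OL values lay below the total RNA values. Mrpl3 was also lower at dpi 2 (-0.35), and Mrps21 (-0.55), Mrps10 (-0.68), Mrpl52 (-0.52), Mrpl49 (-0.58), Mrps36 (-0.73), Mrpl3 (-0.34) and Mrpl42 were lower beside Mrps14 and Mrps2 at dpi 10. Further members high in OL mRNA were Mrpl48 (0.89 at dpi 2, 0.63 at dpi 10 and 0.79 at dpi 42), Mrps25 (0.84) and Mrpl20 (0.74) at dpi 2, Mrps31 at dpi 10 (0.74) and dpi 42 (1.02), and Mrpl9 at dpi 42 (0.75). Of the exonic bases of Mrps25, 69.8% overlap Nr2c2 on the other strand.

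The change of OL mRNA from naive compares the level of pulled-down, ribosome-bound mRNA after SCI with that in naive mice. The paper found mRNA of other cells in this fraction and filtered its results for it. That filter was not applied here, and all 8 microglia and macrophage markers rose in OL mRNA at dpi 2 (median 2.89). The 3 comparisons with naive share the naive libraries. At dpi 2, 57 members rose and 2 fell, against 18.4% of all genes tested that rose and 20% that fell, with a median log2 difference of 0.66 over the members and 0.00 over all genes. Of the 57, 48 rose by over 0.5 (all genes 15.9%), and the members ranged from -0.47 to 1.94. Leaving out any 1 of the 6 libraries left 48 to 52 that rose.

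The rise at dpi 2 was spread over both subunits. It took in 23 of 30 bacterial-type proteins of the large subunit (1 fell, median 0.66) and 15 of 21 that are specific to mitochondria (median 0.65). In the small subunit 13 of 16 bacterial-type proteins rose (1 fell, median 0.75) and 6 of 10 mitochondria-specific ones (median 0.54). Mrps36, which structural work places in the ketoglutarate dehydrogenase complex rather than in the mitoribosome, had a difference of 0.57 that missed the threshold (adjusted p = 0.0569).

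**Figure D2:**
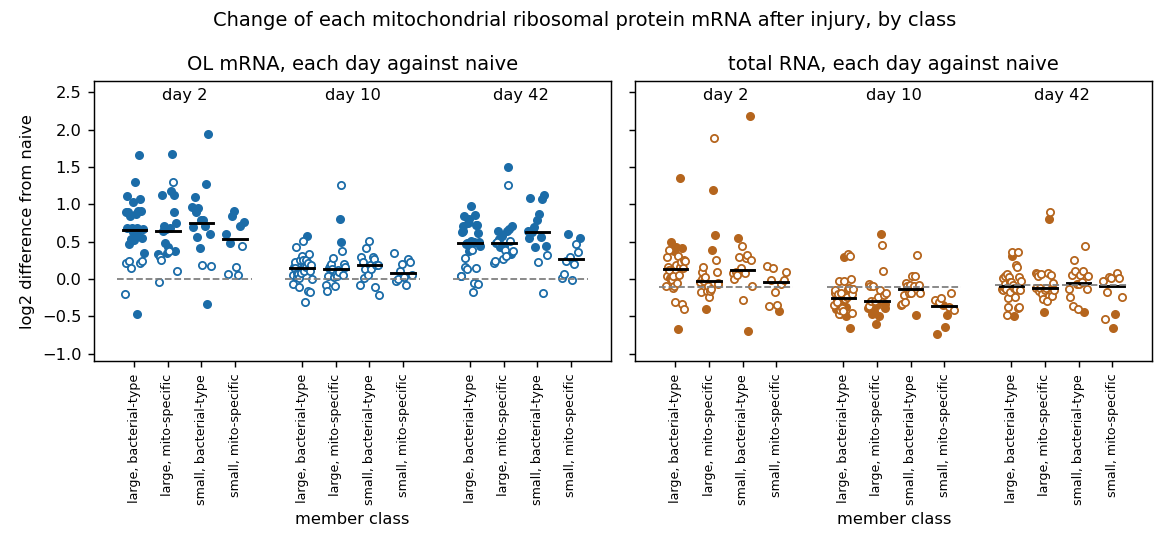
Log2 difference from naive (y axis) of 77 members in 4 classes (x axis; Mrps36, in none of them, is not drawn) at dpi 2, 10 and 42, in OL mRNA (left) and total RNA (right). Filled points passed q < 0.05, black bars are class medians and dashed grey lines the median of all genes tested. In OL mRNA at dpi 2 the 4 class medians lie between 0.54 and 0.75, and in total RNA near 0.

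Mrpl52 rose most clearly. It measured 10.6, 11.0 and 13.8 CPM in naive OL mRNA, 35.5, 36.5 and 41.4 at dpi 2, 19.2, 20.8 and 21.8 at dpi 10, and 40.3, 32.7 and 27.9 at dpi 42. The naive libraries lay below every injured library, and dpi 10 lay between naive and the other times. The differences from naive were 1.67 ± 0.15 at dpi 2 (adjusted p = 2.1e-08), 0.80 ± 0.15 at dpi 10 (adjusted p = 0.00058) and 1.51 ± 0.15 at dpi 42 (adjusted p = 3.2e-07).

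Mrpl51 measured 35.5, 33.9 and 36.2 CPM in naive OL mRNA and 78.3, 80.2 and 80.0 at dpi 2. It then measured 33.0, 35.9 and 43.8 at dpi 10 and 58.3, 57.5 and 48.6 at dpi 42. The dpi 2 libraries lay above all others, and dpi 10 overlapped naive. The difference at dpi 2 was 1.17 ± 0.11 (adjusted p = 6.2e-08).

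Mrpl12 measured 40.8, 37.8 and 45.6 CPM in naive OL mRNA, 81.5, 95.6 and 90.7 at dpi 2, 46.9, 47.7 and 50.9 at dpi 10, and 72.1, 69.1 and 62.4 at dpi 42. All 4 times were apart from each other. The difference was 1.11 ± 0.11 at dpi 2 (adjusted p = 9.3e-08), 0.23 at dpi 10 (adjusted p = 0.162) and 0.71 ± 0.11 at dpi 42 (adjusted p = 3.9e-05). Mrpl33, a small bacterial-type protein of the large subunit (1.66), and Mrpl20, which binds early in assembly of the bacterial large subunit (1.03), came next by p at dpi 2.

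Mrpl3 and Mrps5 fell at dpi 2. Mrpl3 measured 36.3, 41.1 and 36.3 CPM in naive OL mRNA and 29.2, 22.5 and 30.4 at dpi 2, with no overlap (-0.47 ± 0.13, adjusted p = 0.00558). Mrps5 measured 32.4, 36.0 and 36.9 in naive and 29.6, 23.5 and 30.3 at dpi 2, also apart (-0.34 ± 0.13, adjusted p = 0.0486). With the replicate number as a block, and without dpi 2 replicate 2, naive OL replicate 2 or naive OL replicate 3, 1 member fell instead of 2. Both genes also fell in total RNA.

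**Figure D3:**
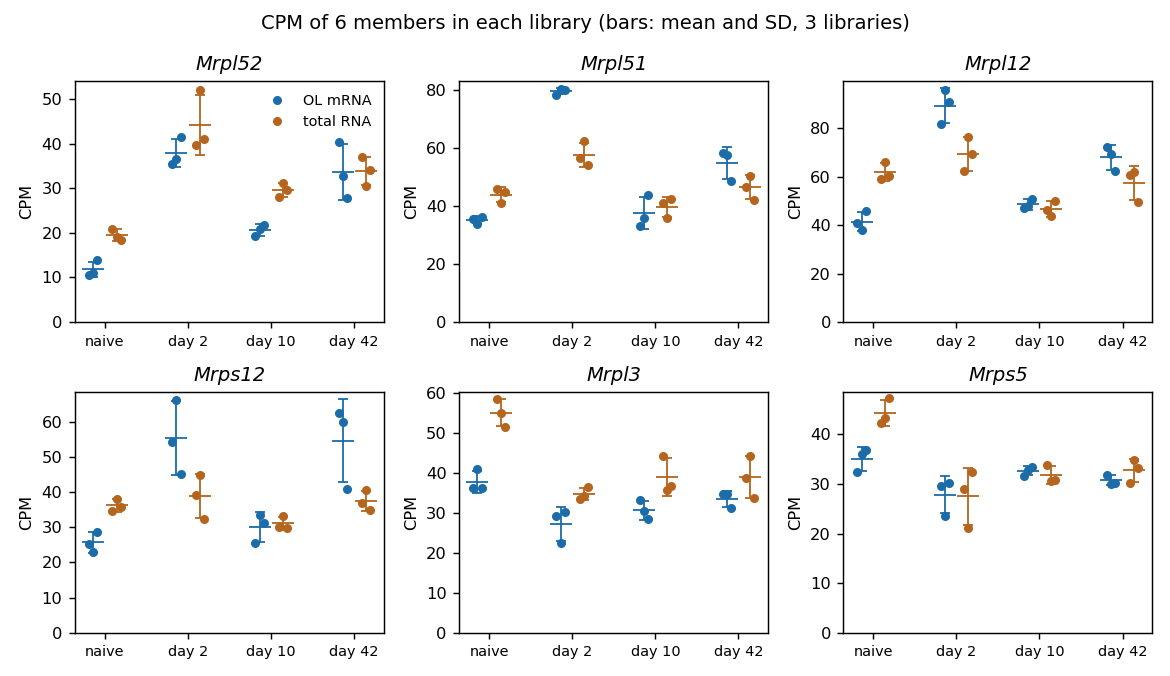
CPM (y axis) of 6 members in each library by time (x axis), for OL mRNA and total RNA. Points are libraries and bars the mean with SD of 3 libraries. Mrpl52, Mrpl51, Mrpl12 and Mrps12 lie higher in OL mRNA at dpi 2 than in naive, and Mrpl3 and Mrps5 lie lower.

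Transcript length moved with these changes. Across the 78 members, Spearman's rho between the OL change and transcript length was -0.45 at dpi 2, -0.55 at dpi 10 and -0.58 at dpi 42, and over 12267 genes it was -0.42, -0.35 and -0.50. These points share the same libraries and genes are not independent replicates. Of the 39 shorter members (at or under 1302 bases) 33 rose at dpi 2 with a median of 0.71, and of the 39 longer ones 24 rose and 2 fell with a median of 0.44. When length and GC content were corrected for in each library, 23 members rose and 4 fell at dpi 2 (all genes 14.6% and 18.9%), with a median of 0.05 against -0.03 over all genes, and all 23 were among the 57. With the correction Mrpl33 (1.89), Mrpl51 (1.16), Mrpl52 (0.68) and Mrpl12 (0.31) still rose, while Mrpl20 (0.30), Mrpl3 (-0.29) and Mrps5 (-0.16) did not pass the threshold (adjusted p = 0.0892, 0.0895 and 0.377). What links length to the change was not tested.

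**Figure D4:**
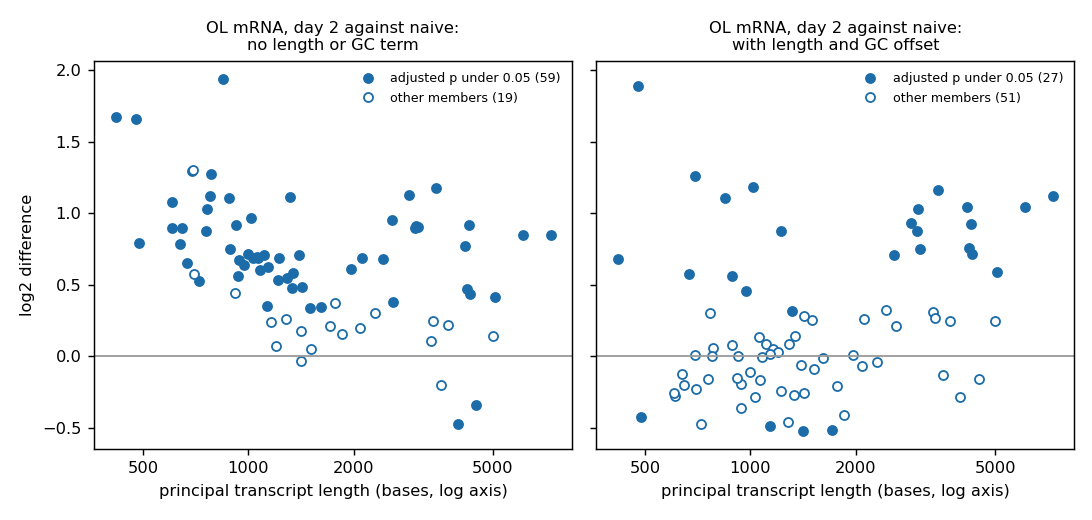
Log2 difference of OL mRNA at dpi 2 from naive (y axis) against the length of the principal transcript in bases (x axis, log scale), without and with the correction for length and GC content. Points are the 78 members, filled where q < 0.05. The uncorrected values fall with length (rho -0.45), and 57 lie higher at q < 0.05 without the correction and 23 with it.

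At dpi 10, 3 members rose and none fell in OL mRNA, against 9.62% and 8.59% of all genes, with a median of 0.13 over the members and 0.00 over all genes. At an unadjusted p under 0.05, 10 members were higher and 1 was lower, and by DESeq2 5 rose and none fell. Mrpl52 was given above. Mrpl33 measured 12.0, 11.5 and 11.7 CPM in naive OL mRNA and 16.2, 15.3 and 20.7 at dpi 10, with no overlap (0.57 ± 0.17, adjusted p = 0.0261). Mrpl54, a mitochondria-specific protein of the large subunit, was the third (0.50 ± 0.17, adjusted p = 0.0416). Without dpi 10 OL replicate 3, naive OL replicate 1 or naive OL replicate 2, 1 member rose. With the correction for length and GC content 1 rose and 14 fell (all genes 7.52% and 13.1%), and the median turned to -0.20.

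At dpi 42, 47 members rose and none fell in OL mRNA (all genes 16.2% and 16.9%), with a median of 0.48 against 0.00 over all genes, and 32 rose by over 0.5 (all genes 13.7%). At an unadjusted p under 0.05, 56 were higher and 0 lower, and by DESeq2 53 rose and none fell. Again the range was wide, from -0.19 to 1.51. By class, 20 of 30 and 12 of 21 proteins of the large subunit rose (bacterial-type and mitochondria-specific, both with a median of 0.48). In the small subunit 13 of 16 bacterial-type proteins rose (median 0.63), but 2 of 10 mitochondria-specific ones (median 0.27). Without dpi 42 OL replicate 1, 29 rose. With the correction for length and GC content 15 rose and 14 fell (all genes 9.93% and 17.3%), with a median of -0.03 against -0.08 over all genes, and 13 of the 47 still rose.

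After Mrpl52 and Mrpl12, the members of smallest p at dpi 42 were Mrps12, Mrps21 and Mrps18a. Mrps12, which lines the decoding centre of the small subunit, measured 25.3, 23 and 28.7 CPM in naive OL mRNA and 62.6, 60.0 and 41.0 at dpi 42, with no overlap (1.09 ± 0.17, adjusted p = 4e-05). Mrps21, a bacterial-type protein of the small subunit, rose by 0.86 and Mrps18a by 0.71. With the correction for length and GC content Mrpl12 stood at -0.17, Mrps12 at -0.03 and Mrps21 at -0.37 at this time.

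Total RNA was compared with naive in the same way, to see whether the whole tissue moved as OL mRNA did. At dpi 2, 10 members rose and 4 fell (all genes 16.4% and 20.8%, member median 0.05, all-gene median -0.10). At dpi 10, 2 rose and 19 fell (13.9% and 18.2%, medians -0.26 and -0.10). At dpi 42, 2 rose and 5 fell (10.4% and 12.1%, medians -0.09 and -0.08). With the correction for length and GC content 22, 44 and 25 members fell (all genes 19.1%, 19% and 10.9%). With it 5, 0 and 0 members rose (all genes 15.9%, 13.1% and 9.05%).

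Several of these counts changed when 1 library was left out. At dpi 10, 11 fell without dpi 10 total RNA replicate 2 and 12 without naive total RNA replicate 1 or 3, and scaled by library size alone 3 fell. At dpi 2, 2 fell without naive total RNA replicate 1 or 3. At dpi 42, 2 fell without dpi 42 total RNA replicate 1 or naive total RNA replicate 3 and 3 fell without dpi 42 total RNA replicate 3. At dpi 10, 1 member rose, not 2, in 5 of the 6 fits without 1 library, all but the fit without naive total RNA replicate 1. At dpi 42, 1 rose in 4 of the 6, those without dpi 42 total RNA replicate 2 or 3 or naive total RNA replicate 2 or 3.

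Mrpl52 rose in total RNA at all 3 times, from 20.9, 19 and 18.3 CPM in naive to 39.6, 51.9 and 41.1 at dpi 2, 28.1, 31.1 and 29.5 at dpi 10 and 36.9, 30.5 and 34.1 at dpi 42. Every injured library lay above every naive one, with differences of 1.19, 0.61 and 0.80 (adjusted p = 1.7e-06, 0.00244 and 0.00036). Mrps6, a bacterial-type protein of the small subunit, measured 15.2, 12.8 and 12.2 CPM in naive total RNA and 51.1, 76.2 and 55.7 at dpi 2 (2.19 ± 0.27, adjusted p = 2.3e-06). By dpi 10 (15.9, 17.2 and 17) and dpi 42 (17.9, 19.4 and 17.4) it lay just above the naive values, with differences past no threshold. In OL mRNA Mrps6 measured 21.3, 21.9 and 17.4 in naive and 67.2, 52.5 and 113.0 at dpi 2, the highest difference of any member there (1.94 ± 0.27, adjusted p = 7.5e-06), with no overlap. Its exons share bases with Gm49711 (19.9%) and Slc5a3 (10.4%) on the same strand.

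Mrpl3 measured 58.6, 55.2 and 51.7 CPM in naive total RNA, 33.6, 34.3 and 36.5 at dpi 2, 44.4, 35.9 and 36.8 at dpi 10 and 38.9, 44.4 and 33.8 at dpi 42. All injured libraries lay below all naive ones, with differences of -0.66, -0.50 and -0.50 (adjusted p = 0.00026, 0.00413 and 0.00648). Mrps5 measured 42.4, 43.4 and 47.3 in naive and 28.9, 21.1 and 32.5 at dpi 2, with no overlap (-0.69 ± 0.13, adjusted p = 0.00027). It also fell at dpi 42 (-0.44).

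Mrpl24 rose slightly in total RNA. Its naive level of 38.1, 33.2 and 32.1 CPM was passed by all libraries at dpi 10 (42.5, 41.9 and 42.0, a difference of 0.29 ± 0.10, adjusted p = 0.0307). At dpi 42 (37.7, 45.6 and 45.0) the lowest library lay just under the highest naive one (0.31 ± 0.10, adjusted p = 0.0291).

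At dpi 10 the clearest falls in total RNA were those of Mrpl46 and Mrpl35. Mrpl46, a mitochondria-specific protein of the large subunit, went from 28.2, 27.9 and 29.0 CPM to 19.3, 18.8 and 18.2 (-0.60 ± 0.13, adjusted p = 0.00134). Mrpl35, bacterial-type, went from 36.1, 33.0 and 34.0 to 20, 22.1 and 23.2 (-0.66 ± 0.15, adjusted p = 0.00175). Neither overlapped its naive libraries. Mrps27, an RNA-binding protein of the small subunit, measured 30.9, 32.7 and 34.2 CPM in naive and 22.3, 26.1 and 13.9 at dpi 42, again without overlap (-0.65 ± 0.17, adjusted p = 0.00816), and fell by 0.64 on the log2 scale at dpi 10.

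Further members that rose in total RNA at dpi 2 were Mrpl33 (1.35), Mrpl17 (0.50) and Mrpl24 (0.43). Mrps31 (-0.43) and Mrpl44 (-0.40) also fell then. Mrpl12 fell at dpi 10 (-0.40), and Mrpl46 (-0.45) and Mrps31 (-0.46) fell at dpi 42.

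Differential OL enrichment is the change of OL mRNA minus the change of total RNA, and asks whether OL mRNA moved more than the tissue did. At dpi 2, 27 members were higher and none lower (all genes 8.06% and 6.03%), with a median of 0.51 over the members and 0.06 over all genes. At dpi 10, 4 were higher and none lower (4.57% and 3.09%, medians 0.38 and 0.08), and 2 were higher with the tissue pool as a replicate block. At dpi 42, 20 were higher and none lower (4.37% and 3.47%, medians 0.59 and 0.04). At an unadjusted p under 0.05, 48, 26 and 53 members were higher and 0 lower, and DESeq2 gave 32, 8 and 31 higher and none lower. By class at dpi 2 these were 8 of 30 and 10 of 21 in the large subunit (bacterial-type and mitochondria-specific) and 6 of 16 and 3 of 10 in the small subunit. At dpi 42 they were 6, 7, 7 and 0.

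The counts of differential enrichment moved when single libraries were left out. At dpi 2, 7, 9 or 10 were higher without naive OL replicate 1, 2 or 3, 12, 9 or 8 without dpi 2 OL replicate 1, 2 or 3, and 16 without dpi 2 total RNA replicate 1. At dpi 10, 0 to 2 were higher in all but 1 of the 12 fits that left out 1 library, the exception being the fit without dpi 10 total RNA replicate 3. At dpi 42, 7, 3 or 10 were higher without naive OL replicate 1, 2 or 3, 3 or 7 without dpi 42 OL replicate 1 or 2, 13 without naive total RNA replicate 3, 9 without dpi 42 total RNA replicate 3 and 31 without dpi 42 total RNA replicate 2. With the correction for length and GC content 10, 1 and 3 were higher (all genes 5.43%, 2.14% and 1.79%), with member medians of 0.36, 0.24 and 0.28. With scaling to a total RNA reference 8, 0 and 5 were.

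Mrpl12 had the smallest p at all 3 times, though not the largest difference at any of them. The log2 ratio of OL mRNA to total RNA within a pool was -0.53, -0.80 and -0.40 in naive tissue. It was 0.39, 0.33 and 0.39 at dpi 2, 0.02, 0.13 and 0.03 at dpi 10, and 0.22, 0.19 and 0.34 at dpi 42. All injured pools thus lay above all naive pools, dpi 10 lay below the other 2 times after injury, and the dpi 2 and dpi 42 pools overlapped. The differential enrichment was 0.95 ± 0.15 at dpi 2 (adjusted p = 0.00026), 0.63 ± 0.15 at dpi 10 (adjusted p = 0.0132) and 0.82 ± 0.15 at dpi 42 (adjusted p = 0.00209).

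Mrps26, a mitochondria-specific protein of the small subunit, had ratios of -0.15, -0.51 and -0.93 in naive and 0.63, 0.74 and 0.34 at dpi 2. They did not overlap (1.09 ± 0.18, adjusted p = 0.0003). Mrps18a had ratios of -0.71, -0.79 and -0.77 in naive and -0.26, 0.07 and -0.33 at dpi 10, also apart (0.59 ± 0.16, adjusted p = 0.0276).

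Mrpl45, which ties the large subunit to the inner membrane, had ratios of -0.53, -0.44 and -0.46 in naive and 0.30, 0.56 and 0.27 at dpi 42 (0.85 ± 0.17, adjusted p = 0.0038). Here too no pool of one group reached the other. Further members were Mrpl51 (0.78), Mrps18a (0.80) and Mrpl45 (0.84) at dpi 2, Mrps11 (0.63) and Mrpl42 (0.66) at dpi 10, and Mrps18a (0.76), Mrpl30 (0.73) and Mrps12 (1.04) at dpi 42. Mrps11 and Mrpl42 missed the threshold with the replicate block.

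**Figure D5:**
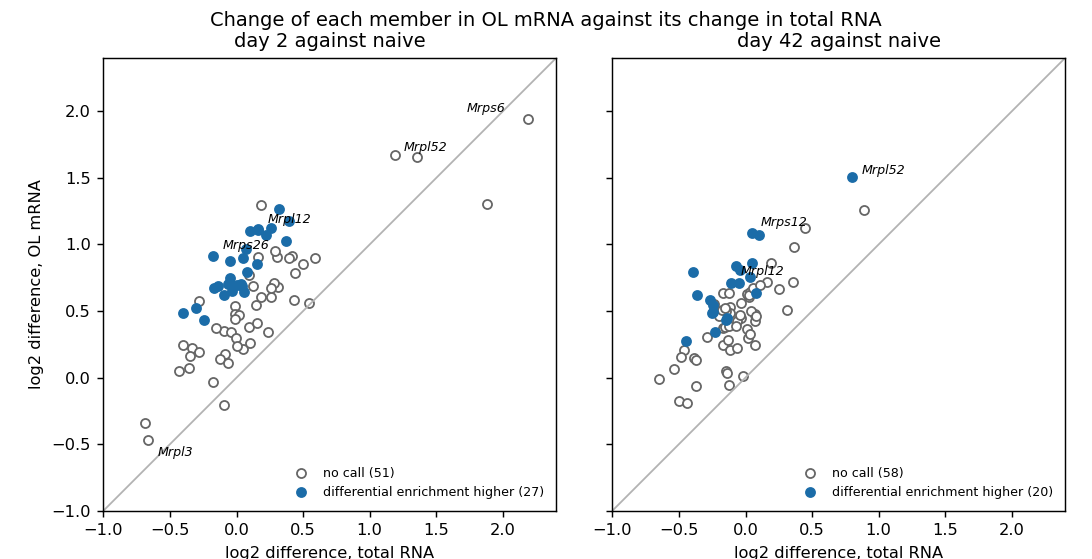
Log2 difference from naive in OL mRNA (y axis) against that in total RNA (x axis) for the 78 members at dpi 2 (left) and dpi 42 (right). Filled points passed q < 0.05 for differential OL enrichment (27 and 20) and the diagonal marks equal change. Filled points all lie above the diagonal, and Mrpl52, high on both axes, is filled at dpi 42 only.

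The times after injury were also compared with each other in OL mRNA. From dpi 2 to dpi 10, 47 members fell and none rose (all genes 10.6% fell and 11.7% rose), with a median of -0.44 against 0.00 over all genes. At an unadjusted p under 0.05, 57 were lower and 0 higher, and by DESeq2 53 fell and none rose. Mrpl51 fell from 78.3, 80.2 and 80.0 CPM to 33.0, 35.9 and 43.8 (-1.08 ± 0.11, adjusted p = 6.1e-07). Mrpl12 fell from 81.5, 95.6 and 90.7 to 46.9, 47.7 and 50.9 (-0.88 ± 0.11, adjusted p = 5.3e-06). Both lay apart between the times. Mrps6 (-1.75), Mrpl20 (-0.90) and Mrpl17 (-0.78) were next. Without dpi 10 OL replicate 1, dpi 10 OL replicate 2 or dpi 2 OL replicate 3, 24, 30 or 28 fell, and with the correction for length and GC content 32 did (all genes 11.2%).

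From dpi 10 to dpi 42, 22 members rose and none fell (all genes 3.28% and 3.9%), with a median of 0.31 against 0.00. At an unadjusted p under 0.05, 40 were higher and 0 lower, and by DESeq2 27 rose and none fell. Mrps21 rose from 23.1, 26.7 and 27.6 CPM to 48.1, 45.6 and 35.1 (0.73 ± 0.14, adjusted p = 0.00451). Mrps12 rose from 25.4, 33.6 and 31.2 to 62.6, 60.0 and 41.0 (0.86 ± 0.17, adjusted p = 0.00545). Neither overlapped between the times. Mrpl52 (0.71), Mrpl51 (0.55) and Mrpl21 (0.73) followed. The count was 2, 10 or 7 without dpi 10 OL replicate 1, 2 or 3 and 3 or 8 without dpi 42 OL replicate 1 or 2. It was 0 when only the 2 groups compared entered the fit, and 9 with the correction for length and GC content.

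Members with roles of their own, or placed in other subunits than their names say, moved unequally in OL mRNA. Mrpl11, in the region where translation GTPases bind, rose at dpi 2 (0.90 ± 0.14, adjusted p = 3.8e-05) and dpi 42 (0.63 ± 0.14, adjusted p = 0.00184). Mrpl58 rose at the same times by 0.38 and 0.34. Mrps30, a protein of the large subunit in spite of its name, had differences of 0.11, 0.16 and 0.38 at dpi 2, 10 and 42, none past the threshold (adjusted p = 0.664, 0.583 and 0.0861).

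Mrps18a, Mrps18b and Mrps18c descend from 1 bacterial protein and occupy different places in the mitoribosome. In the class counts Mrps18c was placed among the bacterial-type proteins, but Mrps18a and Mrps18b among the mitochondria-specific ones in spite of this descent. At dpi 2 all 3 rose in OL mRNA, by 0.75, 0.61 and 0.79. At dpi 42 Mrps18a (0.71) and Mrps18c (0.79) rose, while Mrps18b had a difference of 0.01 (adjusted p = 1). Mrps18a was also higher in differential enrichment at all 3 times, Mrps18c at dpi 42 (1.19, adjusted p = 0.0127) and Mrps18b at none (0.42, 0.63 and 0.03). The difference between these 3 genes was not tested.

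Other genes of mitochondrial translation were counted in the same way, against the 18.4% of all genes that rose and 20% that fell at dpi 2. Of 5 mitoribosome proteins with other names, Aurkaip1 (0.82), Chchd1 (0.82) and Gadd45gip1 (0.49) rose in OL mRNA at dpi 2 and again at dpi 42, when Ptcd3 fell (-0.56). Of 14 translation factors 2 rose and 1 fell at dpi 2, namely Tsfm, the exchange factor of the mitochondrial elongation factor Tu (1.18), Slirp (0.59) and Lrpprc (-0.72), 2 proteins that stabilise mitochondrial mRNAs together. Of 23 assembly factors 5 rose and 3 fell, among them Rbfa (0.70) and Dhx30 (-0.53). Of 10 genes of mitochondrial transcription and genome upkeep 1 rose (Ssbp1, 0.90) and 1 fell (Polrmt, the mitochondrial RNA polymerase, -0.64).

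At dpi 42 the counts of risen and fallen genes were 3 and 1 for the proteins with other names, 3 and 1 for translation factors, 3 and 1 for assembly factors, and 2 and 1 for transcription and genome upkeep. Of all genes 16.2% rose and 16.9% fell then. At dpi 10, 1 translation factor and 1 assembly factor fell and none of these 4 lists had a risen gene. Of all genes 9.62% rose and 8.59% fell at that time. Of 9 regulators of mitochondrial biogenesis, Myc (2.26) and Esrra (0.59) rose and Yy1 fell (-0.70) at dpi 2. Myc rose in total RNA too at that time (2.48). At dpi 10 only Myc rose (1.47) and none fell. At dpi 42 Myc (1.40) and Esrra (0.63) rose, and Ppargc1a (-1.54), Gabpa (-0.68) and Yy1 (-0.64) fell. Of 73 subunits of the respiratory chain and ATP synthase 53 rose and 4 fell at dpi 2 (median 0.73), 3 rose and 6 fell at dpi 10 (median 0.10) and 49 rose and 2 fell at dpi 42 (median 0.60). In differential OL enrichment 58 of the 73 were higher at dpi 2 and 53 at dpi 42 (all genes 8.06% and 4.37%), with none lower at either time. The counts of all these lists are those without the correction for length and GC content.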

How the data were processed

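mRNA of 12 pools of spinal cord tissue was sequenced as OL mRNA and as total RNA. Per the study's methods the authors aligned reads with STAR to mm10 and deposited counts per gene made with HTSeq (the submitters' processing notes name FastQC 0.10.1, HTSeq 0.10.0 and GRCm38.p6), with the strand setting not given in the sources used here, so antisense genes that overlap cannot be told apart. Genes under 10 counts in all libraries together were dropped, and the others were scaled by TMM and fitted as 8 groups. Contrasts were tested with the quasi-likelihood test of edgeR 4.0.16 (R 4.3.3, limma 3.58.1 loaded), with DESeq2 1.42.0 as an alternative. P-values were adjusted by Benjamini-Hochberg over all genes. CPM use the TMM-scaled totals, and log2 CPM a prior count of 2. Scripts were tested on simulated data. Of the oligodendrocyte markers, 1 is not reported here.

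The members and lists were chosen with earlier results of these data known. Named members were, per comparison and direction, the 5 of smallest p among those called (the first 2 with every library), those called against the majority, members with roles of their own and the extremes of level per length. Lengths and GC content are those of the longest principal transcript. The correction used exonic length and this GC content (5 spline degrees of freedom, genes with a mean log2 CPM over 1). The same correction with principal transcript length was added after seeing the data. P-values rest on a spread estimated for each gene over all 24 libraries in 8 groups of 3 pools, and not on the compared groups alone. The main fit had no block for the pool, so OL mRNA and total RNA of the same pool entered it as separate libraries.

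The tissue number in a column's name gave the pairing of pools, since OL mRNA and total RNA came from the same mice. The correlation of their deviations from the group means was 0.163, 0.155 and 0.263 in naive pools, 0.178, 0.176 and 0.191 at dpi 2, 0.131, 0.0559 and 0.0860 at dpi 10 and -0.0476, 0.00597 and 0.0206 at dpi 42. At dpi 42 some pairs from different pools had higher values, 0.0348 for OL and total RNA replicate 1 and 0.0422 for OL and total RNA replicate 2. The correlations thus do not settle the pairing at dpi 42, where the pool ratios rest on the column names.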

Additional observations from a re-analysis of the deposited data

Results flagged for a closer look

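Differential OL enrichment tests whether OL mRNA and total RNA changed by different amounts, and members that passed it are given here again with their values. At dpi 2 the OL change exceeded the total RNA change in 27 members (all genes 8.06%), by 0.95 (log2) in Mrpl12 and by 1.09 in Mrps26. At dpi 10 it did in 4, a share near that of all genes (4.57%), by 0.63 in Mrpl12 and 0.59 in Mrps18a, and at dpi 42 in 20 (all genes 4.37%), by 0.82 in Mrpl12 and 0.85 in Mrpl45.

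The times after injury differed from each other in OL mRNA as well. From dpi 2 to dpi 10, 47 members were lower (all genes 10.6%), Mrpl51 by -1.08 and Mrpl12 by -0.88. From dpi 10 to dpi 42, 22 were higher (all genes 3.28%), Mrps21 by 0.73 and Mrps12 by 0.86. That count was 0 when only the groups compared were fitted and 2 without dpi 10 OL replicate 1.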

How the results depend on the processing

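The members called in each comparison were counted again under other settings, and counts that moved by over 1.5 times follow, with medians and named members whose sign turned (log2). The cause was not tested unless the setting itself shows it. With the low-count filter filterByExpr of edgeR, no count moved so far. Scaled by library sizes alone, members higher and lower in OL enrichment numbered 1 and 67 in naive mice, 4 and 34 at dpi 2, 1 and 47 at dpi 10 and 8 and 28 at dpi 42. Total RNA then had 23 members higher and 2 lower at dpi 2, 4 and 3 at dpi 10 and 2 lower at dpi 42, OL mRNA had 9 higher at dpi 10 and 0 lower at dpi 2, and 1 passed in differential OL enrichment at dpi 10. Median OL enrichment turned to -0.32 at dpi 2, -0.48 at dpi 10 and -0.23 at dpi 42, and the median total RNA change at dpi 42 to 0.036. Mrpl43 turned to -0.12 at dpi 10, and in naive mice Mrpl43, Mrpl58 and Mrpl9 turned to -0.28, -0.18 and -0.24. With a total RNA library as the TMM reference, 8, 0 and 5 members passed in differential OL enrichment at dpi 2, 10 and 42, 1 rose and 1 fell in OL mRNA at dpi 10, and OL enrichment had 8 higher in naive mice, 19 higher and 7 lower at dpi 2 and 7 lower at dpi 42. Total RNA then had 18 higher and 2 lower at dpi 2, 4 and 5 at dpi 10 and 2 lower at dpi 42, with medians turned to -0.026 (OL enrichment, dpi 10) and 0.02 (total RNA, dpi 42).

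By the Wald test of DESeq2, 8 and 31 members passed in differential OL enrichment at dpi 10 and dpi 42 and 5 rose in OL mRNA at dpi 10. That test and the size factors of DESeq2 both gave 1 lower in OL mRNA at dpi 2, 7 lower in OL enrichment at dpi 42 and 2 higher in naive mice, and the size factors gave 12 and 2 lower in total RNA at dpi 10 and dpi 2. With every gene that had a count, 1 was lower in OL mRNA at dpi 2 and 2 higher in naive OL enrichment. Fitting the groups compared alone, with fewer samples for the spread, gave 11 and 11 in differential OL enrichment at dpi 10 and dpi 42, 1 higher at dpi 10, 31 higher at dpi 42 and 0 lower at dpi 2 in OL mRNA, 29 lower from dpi 2 to dpi 10, 0 higher from dpi 10 to dpi 42 and 1 lower in OL enrichment at dpi 42. In total RNA it gave 25 higher and 2 lower at dpi 2 and 5 higher at each of dpi 10 and dpi 42, and turned the median at dpi 42 to 0.022.

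With the correction for length and GC content, members higher and lower in OL enrichment numbered 26 and 9 in naive mice, 46 and 1 at dpi 2 and 38 and 3 at dpi 10. In OL mRNA they numbered 23 and 4 at dpi 2, 1 and 14 at dpi 10 and 15 and 14 at dpi 42, and in total RNA 5 and 22, 0 and 44, and 0 and 25. Differential OL enrichment then passed in 10, 1 and 3, and 9 were higher from dpi 10 to dpi 42. Medians turned to -0.20 and -0.031 in OL mRNA at dpi 10 and dpi 42, 0.13 in naive OL enrichment and -0.17 in total RNA at dpi 2. Mrpl54 turned to -0.26 at dpi 10, and Mrpl12, Mrps12 and Mrps21 to -0.17, -0.033 and -0.37 at dpi 42. The same correction with principal transcript length, added after seeing the data, gave 20 and 13 in naive OL enrichment (all genes 33.5% and 23.7%). At dpi 10 OL enrichment had 36 and 3 (32.1% and 23.9%). In OL mRNA there were 19 and 4 at dpi 2 (13.8% and 18.4%), 0 and 11 at dpi 10 (7.44% and 13.3%). At dpi 42 there were 15 and 12 (9.5% and 17.3%). Differential OL enrichment passed in 8, 1 and 3 (5.25%, 2.18% and 1.51%). From dpi 2 to dpi 10, 26 were lower (10.4%), and from dpi 10 to dpi 42, 5 were higher (0.751%). In total RNA 26, 43 and 26 were lower and 0 higher at dpi 10. Medians turned to -0.005, -0.19 and -0.09 in OL mRNA, 0.18 in naive OL enrichment and -0.26 in total RNA at dpi 2, and Mrpl54 to -0.14 (dpi 10), Mrpl12, Mrps18a and Mrps21 to -0.053, -0.25 and -0.20 (dpi 42) and Mrpl52 to 0.12 (OL enrichment, dpi 10).

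With a replicate block (the tissue pool where OL mRNA is set against total RNA, the replicate number elsewhere), 2 members passed in differential OL enrichment at dpi 10 and 1 was lower in OL mRNA at dpi 2. The blocked counts were 56 and 44 higher in OL mRNA at dpi 2 and dpi 42, and 27 and 21 in differential OL enrichment. Of the 99 named values, 91 kept their call under the block and 8 lost it. Without the dpi 2 pool with Y-linked reads, 1 was lower in OL mRNA and 1 in OL enrichment at dpi 2.

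Leaving out 1 library at a time, the counts ranged as follows. Differential OL enrichment passed in 7 to 28 at dpi 2, 0 to 3 at dpi 10 and 3 to 31 at dpi 42. In OL mRNA 48 to 52 rose and 1 to 3 fell at dpi 2, 1 to 3 rose at dpi 10 and 29 to 46 at dpi 42, with 24 to 36 lower from dpi 2 to dpi 10 and 2 to 24 higher from dpi 10 to dpi 42. In OL enrichment 1 to 9 were higher and 20 to 30 lower in naive mice, and 1 to 6 and 1 to 4 lower at dpi 2 and dpi 42. In total RNA 2 to 3 fell at dpi 2, 1 to 2 rose and 11 to 15 fell at dpi 10, and 1 to 2 rose and 2 to 6 fell at dpi 42.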
